A study of Rattus norvegicus with 9 samples.

Results

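The receptors for angiotensin II (Ang II) and the protein that binds the tail of its main receptor were described in rat adrenal zona glomerulosa cells: Agtr1a and Agtr1b, which encode the AT1A and AT1B receptors, Agtr2, which encodes the AT2 receptor, and Agtrap, which encodes the angiotensin II receptor-associated protein. The 4 genes were chosen by name, as the annotation of the array gives it, and are 4 of 14217 genes named there. They were measured by 7 of 31042 probe sets, a probe set being a group of short oligonucleotides that together report 1 transcript: 2 each for Agtr1a, Agtr2 and Agtrap, and 1 for Agtr1b. Cells were isolated fresh from rat adrenals in 3 independent preparations, each divided into 1 control tube, 1 tube with Ang II at 100 nM and 1 tube with potassium at 16 mM, all kept for 2 h at 37 °C in serum-free medium with fatty acid free albumin. The 9 tubes gave 9 Affymetrix Rat Genome 230 2.0 arrays, 3 per group, and no array repeated a tube. Strain, sex and age of the rats were not stated.

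Ang II drives aldosterone secretion by glomerulosa cells through AT1, a receptor that couples to Gq, releases calcium from stores through phospholipase C and activates protein kinase C. Rodents carry a pair of AT1 genes where humans carry 1, and the rat adrenal is known for its AT1B. AT2 is encoded on the X chromosome, is abundant in the rat adrenal and is generally described as opposing AT1, while Agtrap protein binds the cytoplasmic tail of AT1 and promotes its internalisation. A rise in extracellular potassium depolarises the same cells and stimulates aldosterone by calcium entry, without an AT1 ligand.

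The common trimmed mean of the deposited signals was 500.2 on every array, and array medians lay between 128 and 173. Of 13 zona glomerulosa markers, 12 were measured and all 12 lay above the low-signal filter described below, while Cyp11b2 was not analysed here. How far listed genes such as Star, Cyp11a1, Hsd3b1 and Nr5a1 are shared with other cortical cells was not tested. Markers of other cells were measured too. Of those with a probe set, 3 of 3 zona fasciculata, 8 of 8 capsule fibroblast, 5 of 6 endothelium and 7 of 8 medulla markers were above the filter. So were 7 of 8 smooth muscle and pericyte markers and 5 of 6 macrophage markers, and no marker was listed at 0. In control, summed signals ran from 102023 to 110857 for zona glomerulosa and 32547 to 39761 for zona fasciculata markers. They ran from 21978 to 27352 for endothelium and 15949 to 19300 for capsule fibroblast markers. Most of the fasciculata sum came from Akr1b7, which averaged 28312 in control. Sums of different lists rest on different probe sets, so they do not measure shares of cells. The summed signal of the medulla markers ran from 2885 to 3694 in control, 2785 to 3528 after Ang II and 2657 to 3846 after potassium, and the sums of the other marker lists overlapped between the groups as well. In the test described below, the glomerulosa marker Wnt4 was lower after Ang II than in control, at -0.32 ± 0.07, and than after potassium, at -0.41 ± 0.07 (log2, SE; limma adjusted p = 0.0223 and 0.00225). Star, from the same list, rose by 0.29 ± 0.06 after Ang II and 0.34 ± 0.06 after potassium (limma adjusted p = 0.0227 and 0.00396). Neither was recomputed under alternative settings. Among the marker genes of the other cells 1 passed, Acta2, a smooth muscle actin, which rose after Ang II by 0.40 ± 0.10 (log2, SE; limma adjusted p = 0.0493). That call was lost in 18 of 22 alternatives, among them each that left out 1 preparation or 1 tube, and the part of Acta2 in the receptor values was not tested. In such bulk RNA, fewer cells of a type and less RNA per cell cannot be told apart.

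The 250 bases upstream of each gene's start are shown because the 4 genes, which serve 1 hormone, differ there in composition and in the short motifs they hold. They are RefSeq sequences of build GRCr8, written 5′ to 3′ on the strand of the gene: Agtr1a at chr17:34435433-34435682 (minus strand), Agtr1b at chr2:104849263-104849512 (minus), Agtr2 at chrX:116914070-116914319 (plus) and Agtrap at chr5:163802175-163802424 (minus). Capitals mark every match, on either strand, to the motifs named after the sequences.
Agtr1a: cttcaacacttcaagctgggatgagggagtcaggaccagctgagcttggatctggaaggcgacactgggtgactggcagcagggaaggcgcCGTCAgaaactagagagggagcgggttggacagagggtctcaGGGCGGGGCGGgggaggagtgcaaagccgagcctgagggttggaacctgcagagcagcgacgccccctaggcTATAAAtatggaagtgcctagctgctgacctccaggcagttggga
Agtr1b: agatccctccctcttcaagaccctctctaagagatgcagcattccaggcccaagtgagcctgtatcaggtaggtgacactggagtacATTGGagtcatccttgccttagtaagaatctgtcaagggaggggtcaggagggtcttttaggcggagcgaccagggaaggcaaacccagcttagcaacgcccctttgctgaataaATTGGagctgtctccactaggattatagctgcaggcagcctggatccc
Agtr2: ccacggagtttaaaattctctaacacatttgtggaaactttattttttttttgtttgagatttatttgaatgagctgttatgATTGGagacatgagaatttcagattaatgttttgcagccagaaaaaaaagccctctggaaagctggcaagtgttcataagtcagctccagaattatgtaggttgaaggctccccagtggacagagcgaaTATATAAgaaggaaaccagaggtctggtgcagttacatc
Agtrap: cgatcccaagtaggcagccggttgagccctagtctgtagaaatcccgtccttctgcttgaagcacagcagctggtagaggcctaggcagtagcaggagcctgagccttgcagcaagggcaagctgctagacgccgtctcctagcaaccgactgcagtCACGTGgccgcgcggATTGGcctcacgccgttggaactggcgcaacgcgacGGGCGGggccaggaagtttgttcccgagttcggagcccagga

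The GC content of these windows was 60.8% for Agtr1a, 52.8% for Agtr1b, 38% for Agtr2 and 62.4% for Agtrap, against a median of 51.2% over the 33469 RefSeq promoters of the same length. CpG dinucleotides numbered 9, 3, 2 and 19 in that order, against a median of 5. The motifs searched were the TATA box TATAAA and its variant TATATAA, the Sp1 GC box GGGCGG, the core TGACG of the cAMP response element, the AP-1 site TGANTCA, the orphan nuclear receptor site AAGGTCA, the early growth response site GCGNGGGCG, the E box CACGTG and the CCAAT box. Agtr1a held TATAAA with its first base 45 bases before the start, a pair of GC boxes that share a base, and TGACG on the opposite strand. Agtr1b held CCAAT on the opposite strand at 2 places and no TATA match. Agtr2 held TATATAA with its first base 39 bases before the start, and CCAAT on the opposite strand. Agtrap held the E box, then the CCAAT box on the opposite strand and, nearest the start, the GC box. Among all promoters TATAAA was found in 12.9%, TATATAA in 3.42%, GGGCGG in 30.5%, TGACG in 18.2%, CACGTG in 5.59% and CCAAT in 34%. The AP-1, orphan nuclear receptor and early growth response sites, found in 6.34%, 3.99% and 4.29% of promoters, had no match in these 4 windows.

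Each array gave 1 linear signal per probe set, in arbitrary units. Signals of different probe sets depend on the oligonucleotides as well as on the RNA, so levels were compared between groups within a probe set and never between probe sets. Fold changes were estimated as differences of log2(signal + 16), a scale on which changes of dim probe sets come out too small, in a limma fit of all 9 arrays with the preparation as a block. A change was called where the p-value, adjusted by Benjamini-Hochberg over 18625 tested probe sets, lay under 0.05. Tested probe sets had a mean signal above the 40th percentile of all probe sets, which was 87.1, and all 7 receptor and Agtrap probe sets passed this filter. The error behind each p-value combines how unevenly a probe set responded across the 3 preparations, with 4 residual degrees of freedom, and a prior that limma estimates from all tested probe sets, worth 10.7.

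None of the 7 probe sets changed past the threshold in any of the 3 comparisons. The background share of called probe sets was 2.17% where Ang II was set against control, 5.39% where potassium was, and 4.79% between the 2 stimuli. At an unadjusted p under 0.05, 1 of 7 was lower after Ang II (background 14.5% in either direction, 7.2% for lower values), 4 of 7 were higher after potassium (18.8% in either direction, 8.76% for higher values) and 3 of 7 were lower with Ang II than with potassium (16.2% in either direction, 7.66% for lower values). The 4 with higher values after potassium were the 2 Agtr1a and the 2 Agtr2 probe sets, and the 1 with lower values after Ang II was an Agtrap probe set. Both stimuli were compared with the same 3 control tubes, so these comparisons are not independent of each other.

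**Figure D1:**
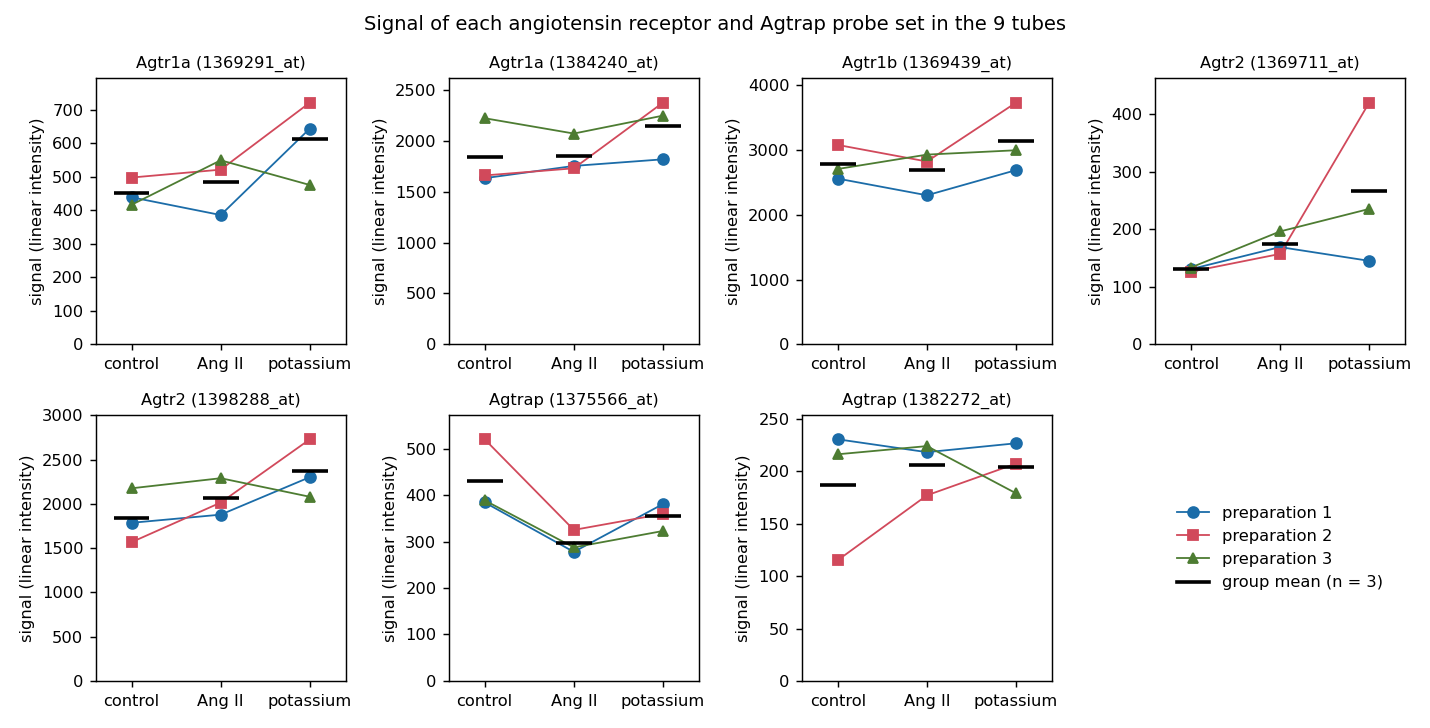
Signal of each of the 7 probe sets (linear, arbitrary units, vertical axes starting at 0) in control, Ang II and potassium tubes, 1 point per array, with lines joining the tubes of 1 preparation and a bar at each group mean. The potassium mean is the highest of the 3 in all 5 receptor panels, and in the Agtrap panel 1375566_at the 3 Ang II points, 278 to 325, lie under the 3 control points, 384 to 520.2.

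Agtr1a was followed by probe sets 1369291_at and 1384240_at. For 1369291_at the signal in preparations 1, 2 and 3 was 439, 498 and 416 in control, 386, 521 and 549 after Ang II, and 644, 721.5 and 475 after potassium. The potassium tube stood above the control tube of its own preparation each time, but the lowest potassium signal lay below the highest control signal, so the groups overlapped. Group means were 451 ± 42.0 in control, 485 ± 87.5 after Ang II and 614 ± 126 after potassium (SD, n = 3 each). Potassium against control gave a log2 fold change of 0.41 ± 0.15 (SE), a 1.33-fold higher signal with an unadjusted 95% interval of 1.07 to 1.67, and did not pass (limma adjusted p = 0.143). Without the potassium tube of preparation 3 it was 0.60 and passed (limma adjusted p = 0.047). For Ang II against control the value was 0.09 ± 0.15 (limma adjusted p = 0.848), with an interval of 0.851 to 1.33 for the fold, and it turned to -0.11 without the Ang II tube of preparation 3.

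The other Agtr1a probe set, 1384240_at, read 1634, 1661 and 2223.5 in control, 1754, 1731 and 2073 after Ang II, and 1819, 2377 and 2249 after potassium. Preparation 3 was already high in its control tube, and the 3 groups overlapped. The means were 1839 ± 333 in control, 1853 ± 191 after Ang II and 2148.5 ± 292 after potassium (SD, n = 3 each). Potassium against control came to 0.23 ± 0.10 on the log2 scale (SE; 1.17-fold, unadjusted interval 1.02 to 1.35), which did not pass (limma adjusted p = 0.208). Almost no difference was measured in preparation 3, at 0.02, against 0.51 in preparation 2. The value was 0.09 without preparation 2, and also 0.09 without its potassium tube, with unadjusted p-values from limma of 0.4 and 0.33. Ang II against control gave 0.02 ± 0.10 (limma adjusted p = 0.951) with an unadjusted interval of 0.88 to 1.17 for the fold. Quantile normalization turned this value to -0.01.

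Agtr1b had 1 probe set, 1369439_at, with signals of 2559, 3079.8 and 2708 in control, 2302 and 2823 in preparations 1 and 2 and 2930.2 in preparation 3 after Ang II, and 2691, 3734 and 2998 after potassium. Potassium signals were above control in each preparation, highest in preparation 2, where control was high as well, and the groups overlapped. The means were 2782 ± 268 in control, 2685 ± 336 after Ang II and 3141 ± 536 after potassium (SD, n = 3 each). Potassium against control gave 0.16 ± 0.08 (log2, SE; 1.12-fold, unadjusted interval 0.994 to 1.26; limma adjusted p = 0.294), and 0.09 without the potassium tube of preparation 2. Ang II against control gave -0.05 ± 0.08 (unadjusted interval of the fold 0.854 to 1.09; limma adjusted p = 0.824), which became 0.07 when arrays were scaled to a common median.

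Ang II and potassium were also compared with each other for the AT1 genes. The log2 difference, Ang II minus potassium, was -0.32 ± 0.15 for Agtr1a 1369291_at, -0.21 ± 0.10 for 1384240_at and -0.22 ± 0.08 for Agtr1b (SE; limma adjusted p = 0.308, 0.301 and 0.173), so none passed. All 3 had unadjusted p-values under 0.05, between 0.0166 and 0.0498, as fitted on all 9 arrays. Each value depended on single preparations or tubes: without preparation 1 the first was -0.13, without the potassium tube of preparation 2 the second was -0.07, and without preparation 2 the third was -0.13 (limma unadjusted p = 0.49, 0.44 and 0.19). Without preparation 3 the first was -0.59 (limma adjusted p = 0.057). For 1384240_at and Agtr1b the Ang II tube read lower than the potassium tube in all 3 preparations, which 19.9% of tested probe sets also showed.

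The balance between the AT1 genes was followed as the log2 ratio of an Agtr1a signal to the Agtr1b signal of the same tube. With 1369291_at the changes in preparations 1 to 3 were -0.03, 0.19 and 0.27 after Ang II, and 0.47, 0.24 and 0.04 after potassium. The mean change was 0.145 ± 0.155 after Ang II and 0.25 ± 0.214 after potassium (SD, n = 3; exact sign-flip permutation test, two-sided, p = 0.5 and 0.25). With 1384240_at the mean change was 0.075 ± 0.252 after Ang II and 0.063 ± 0.184 after potassium (SD, n = 3; exact sign-flip permutation test, two-sided, p = 0.75 for each). These 3 pairs allow no p below 0.25, so a change of the ratio could not have passed at 0.05. Agtr1a and Agtr1b are close paralogs, and how far a probe set of 1 also binds transcripts of the other was not tested.

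Agtr2, the AT2 receptor gene, had the largest fitted difference of the 7 probe sets, after potassium. Probe set 1369711_at read 131, 126 and 133.5 in control, 169, 157 and 196 after Ang II, and 145, 421 and 235.5 after potassium. All 3 control signals sat close together and not far above the filter of 87.1, every stimulated tube was above every control tube, and 1 potassium tube, of preparation 2, stood far above the rest. Within their own arrays the control signals ranked at percentiles 50.1, 41.8 and 48.6, so their closeness depends on the deposited scale. A group of signals wholly above control was found in 7.3% of tested probe sets after Ang II and in 7.82% after potassium. The means were 130.1 ± 3.66 in control, 174 ± 20.1 after Ang II and 267 ± 140.4 after potassium (SD, n = 3 each).

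Potassium against control gave 0.83 ± 0.27 for this probe set (log2, SE; 1.78-fold, unadjusted interval 1.2 to 2.66), which did not pass (limma adjusted p = 0.0917). The paired differences were 0.14, 1.62 and 0.75 in preparations 1 to 3, a wide range in 1 direction. The value was 0.42 without the potassium tube of preparation 2, 0.44 without preparation 2, and 1.17 without the potassium tube of preparation 1, where it passed (limma adjusted p = 0.039). Scaling arrays to a common median gave 0.94, which also passed (limma adjusted p = 0.033). Ang II against control gave 0.38 ± 0.27 (log2, SE; 1.30-fold, unadjusted interval 0.871 to 1.93; limma adjusted p = 0.578), with paired differences of 0.34, 0.28 and 0.51. That value ran from 0.20 without the control tube of preparation 2 to 0.62 without the Ang II tube of preparation 2. Ang II against potassium gave -0.46 ± 0.27 (limma adjusted p = 0.45), but -0.02 without preparation 2, -0.04 without its potassium tube and -0.80 without the potassium tube of preparation 1.

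The brighter readout of Agtr2, 1398288_at, gave 1786.5, 1568 and 2176 in control, 1879, 2015 and 2290.3 after Ang II, and 2302.5, 2730 and 2080.4 after potassium. Preparations 1 and 2 were highest with potassium, whereas in preparation 3 the potassium tube was the lowest of the 3, and the groups overlapped. The means were 1843.5 ± 308 in control, 2061 ± 209.7 after Ang II and 2371 ± 330.1 after potassium (SD, n = 3 each). Potassium against control gave 0.36 ± 0.12 (log2, SE; 1.29-fold, unadjusted interval 1.08 to 1.54; limma adjusted p = 0.0988). It was 0.58 without preparation 3, 0.50 without its control tube and 0.55 without its potassium tube, and passed each time (limma adjusted p = 0.01, 0.048 and 0.0095), whereas it was 0.15 without preparation 2. Ang II against control gave 0.17 ± 0.12 (log2, SE; 1.12-fold, unadjusted interval 0.941 to 1.34; limma adjusted p = 0.575), with a higher signal in all 3 preparations. It was 0.01 without the control tube of preparation 2, 0.07 without preparation 2 and 0.30 without the control tube of preparation 3. Between the stimuli it was -0.20 ± 0.12 (log2, SE; limma adjusted p = 0.478), and -0.03 without the potassium tube of preparation 2. Ang II signals of both Agtr2 probe sets were thus above control in every preparation, which 15.6% of tested probe sets showed after Ang II, and neither passed.

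Agtrap, whose product binds the AT1 tail, had probe sets that did not move together. Probe set 1375566_at read 384, 520.2 and 389 in control, 278, 325 and 287.5 after Ang II, and 381, 359.6 and 323 after potassium. Each Ang II signal lay below each control signal, as did each potassium signal, and the control tube of preparation 2 was the highest of all. A group of signals wholly below control was found in 7.73% of tested probe sets after Ang II and in 9.79% after potassium. The means were 431 ± 77.2 in control, 297 ± 25.0 after Ang II and 354 ± 29.4 after potassium (SD, n = 3 each).

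Ang II against control gave -0.50 ± 0.14 for 1375566_at (log2, SE), a 1.42-fold lower signal. The unadjusted 95% interval of the fold was 0.571 to 0.87, the unadjusted p was 0.00304, and the adjusted p from limma was 0.091, so the difference did not pass. The paired differences were -0.45, -0.65 and -0.42 in preparations 1 to 3, close to each other. Over 22 alternative settings the value stayed between -0.58 and -0.39 and the limma adjusted p between 0.073 and 0.3. Potassium against control gave -0.26 ± 0.14 (log2, SE; 1.20-fold lower; limma adjusted p = 0.35), with almost no difference in preparation 1, and it was -0.13 without preparation 2 and -0.39 without preparation 1. Ang II against potassium gave -0.24 ± 0.14 (limma adjusted p = 0.448). Signals below control in all 3 preparations, as measured here for both stimuli, were found in 19.7% of tested probe sets after Ang II and in 20.9% after potassium.

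The second Agtrap probe set, 1382272_at, read 231, 115 and 216 in control, 218, 177 and 224 after Ang II, and 227, 207.5 and 179 after potassium. The control tube of preparation 2 was the lowest of the 9, the same tube that was the highest for 1375566_at, and the groups overlapped. The means were 187 ± 62.9 in control, 207 ± 25.6 after Ang II and 204.5 ± 24.05 after potassium (SD, n = 3 each). Ang II against control gave 0.18 ± 0.22 and potassium against control 0.16 ± 0.22 (log2, SE; limma adjusted p = 0.772 and 0.745). Without that control tube the values were -0.07 and -0.08. The unadjusted interval for Ang II, 0.822 to 1.55, overlaps that of 1375566_at over a narrow range only, and which part of the transcripts each probe set reads was not tested here.

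**Figure D2:**
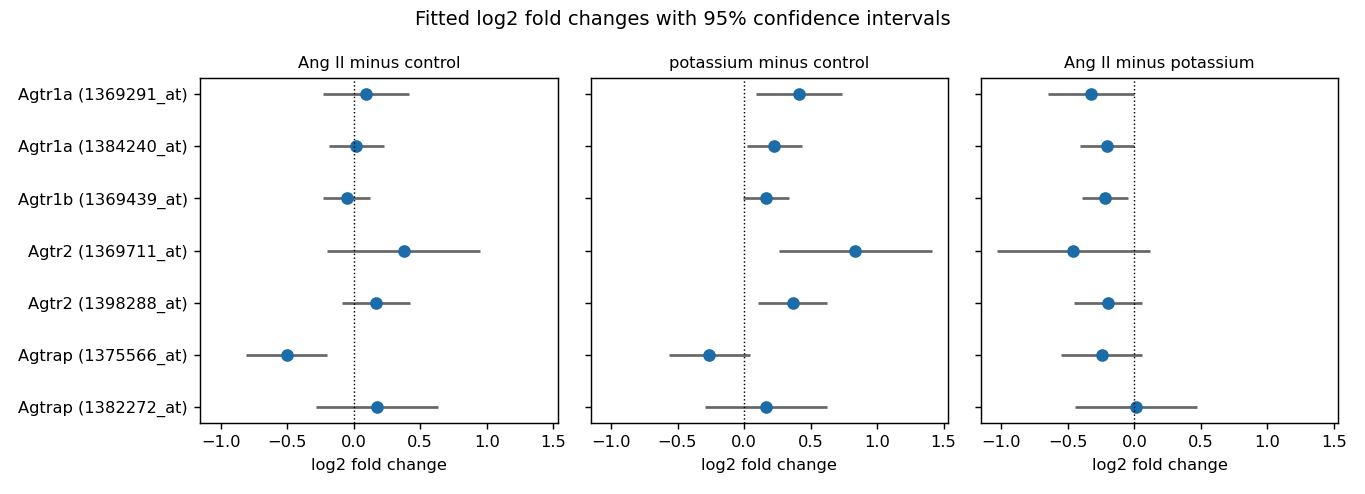
Log2 fold change of each probe set for each stimulus against control and for the stimuli against each other; points are the fitted values over 3 preparations and bars their unadjusted 95% intervals. The intervals of Agtr1a and Agtr2 lie above 0 for potassium and that of Agtrap 1375566_at below 0 for Ang II, and no probe set passed after adjustment over 18625 probe sets.

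The order of the 3 group means was the same for several probe sets. Potassium gave the highest mean for all 5 receptor probe sets, as it did for 33.3% of all tested probe sets, and control the highest for Agtrap 1375566_at. For 4 of the 5 receptor probe sets the potassium signal was above control in each preparation, against 17.4% of all tested. For Agtr1b, Ang II had the lowest mean, as for 35.7% of all tested. For the other 4 receptor probe sets control had the lowest mean, but neighbours in each of these orders did not differ past the threshold. Over all tested probe sets the median log2 fold change was -0.03 for Ang II and -0.02 for potassium, and the median standard error was 0.149.

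Scaling arrays to a common median moved those medians to 0.09 and 0.10, so signs of small values rest on the scale chosen. Called probe sets were 306 higher and 98 lower after Ang II as deposited, and 424 and 30 with that scaling. After potassium they were 521 and 483, and 719 and 180 with the scaling. Under it the Agtrap 1375566_at value for Ang II kept its sign at -0.39, and the sign of the Agtr1b value for Ang II turned.

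**Figure D3:**
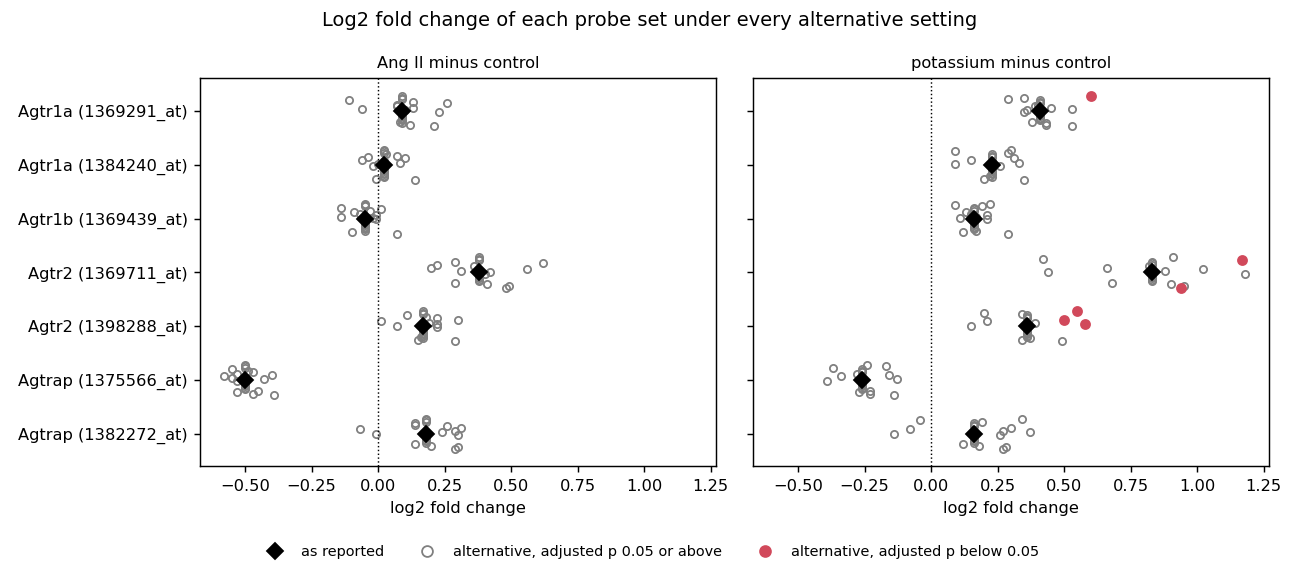
Log2 fold change of each probe set under every alternative setting, for Ang II (left) and potassium (right) against control; diamonds are the values as reported, open circles alternatives that did not pass and filled circles alternatives that passed. Filled circles appear for potassium only, for 1 Agtr1a and both Agtr2 probe sets, and Agtrap 1375566_at stays between -0.58 and -0.39 for Ang II.

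Probe sets of 1 gene differed in how closely they followed each other. After the mean of each preparation was removed, Pearson's r over the 9 arrays was 0.57 between the Agtr1a probe sets, 0.75 between the Agtr2 probe sets and -0.55 between the Agtrap probe sets. Between probe sets of different receptor genes it ran from 0.56 to 0.87. With the 5 receptor probe sets, Agtrap 1375566_at gave -0.52 to 0.11 and Agtrap 1382272_at 0.32 to 0.84. These are descriptions over arrays that share tubes, scaling and stimuli.

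Candidates were 14020 probe sets with 1 gene symbol. The 4 genes with the profile most like each receptor or Agtrap probe set were listed by the same r. For Agtr1a they were Mid1, Hexim1, Pdcd4 and Rab14 (r from 0.961 to 0.976) with 1369291_at, and Chchd3, Ncoa1, Dnajc9 and Cibar1 (0.971 to 0.993) with 1384240_at. Agtr1b was followed most closely by Grsf1, Ogn, Nfib and Magt1 (0.97 to 0.992). Agtr2 1369711_at was followed by Rchy1, Ppp1r2, Akap8l and Vegfa (0.971 to 0.984), and 1398288_at by Serf1, Tbc1d31, Mettl5 and Dhrs11 (0.978 to 0.984). The list for Agtrap was Ftx, Abhd6, Sppl3 and Fam234b (0.978 to 0.99) with 1375566_at, and Sart1, Tmem59, Mrpl27 and Itm2b (0.968 to 0.974) with 1382272_at, without a shared gene. Vegfa and Abhd6 passed the threshold against control, but they were picked for resembling Agtr2 and Agtrap signals, so their calls are no separate evidence on these genes. Vegfa, a growth factor for blood vessels, rose after potassium by 0.84 ± 0.15 (log2, SE; limma adjusted p = 0.00432). Abhd6, a lipase that degrades monoacylglycerols, fell after Ang II, at -0.44 ± 0.10 (limma adjusted p = 0.0377), a call lost in 14 of 22 alternatives, among them each that left out 1 preparation or 1 control or Ang II tube.

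The other genes of the pathway were taken from 6 lists with 124 genes, of which 83 were tested. After Ang II 2 of 83 were higher and 0 lower past the threshold, after potassium 4 were higher and 1 lower, and between the stimuli 1 was higher with Ang II and 1 lower. The backgrounds were 1.64% higher and 0.526% lower for Ang II, 2.8% and 2.59% for potassium, and 3.1% and 1.7% for Ang II against potassium. The median log2 fold change of the 83 genes was 0.0042 after Ang II and 0.024 after potassium, close to 0 as over all tested probe sets.

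Upstream of the receptors, none of 9 tested genes of renin-angiotensin peptides and enzymes passed in any comparison in the limma fit, nor at an unadjusted p under 0.05. Among 15 receptor partners 1 passed: Mtus1, which encodes an AT2 receptor-interacting protein. Its probe set 1372457_at averaged 2400.1 ± 151.5 in control, 2994 ± 217 after Ang II and 3473 ± 514 after potassium (SD, n = 3 each), and rose after potassium by 0.52 ± 0.09 (log2, SE; limma adjusted p = 0.00337). The other probe sets of Mtus1 rose as well, by 0.55 and 0.62 (limma adjusted p = 0.00261 and 0.000863). After Ang II the 3 probe sets gave 0.32, 0.29 and 0.47, of which the last passed (limma adjusted p = 0.107, 0.148 and 0.0156). That call, of 1380321_at, was lost in 8 of 22 alternatives, among them those without preparation 2 or 3 or their control or Ang II tubes. Without preparation 2 the potassium value of 1372457_at was 0.40 and did not pass.

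Downstream, 1 of 21 genes of Gq, phospholipase C and calcium passed after Ang II and 0 after potassium. It was Atp2b1, a plasma membrane pump that exports calcium, whose probe set 1370050_at averaged 2109 ± 155.5 in control, 2837 ± 324 after Ang II and 2469.9 ± 254 after potassium (SD, n = 3 each). It rose after Ang II by 0.42 ± 0.08 (log2, SE; limma adjusted p = 0.00709), but its other probe sets gave 0.28 and -0.10 without passing, and the call was lost in 6 of 22 alternatives, among them those without preparation 1 or 2 and without the control or Ang II tube of preparation 2. Of 19 kinases and arrestins Prkcd, a protein kinase C that diacylglycerol activates, passed after potassium. It averaged 3945 ± 189 in control, 4425 ± 124 after Ang II and 2822 ± 421 after potassium (SD, n = 3 each). It fell after potassium, at -0.49 ± 0.08, and was higher with Ang II than with potassium by 0.66 ± 0.08 (log2, SE; limma adjusted p = 0.00124 and 0.00011). Scaling to a common median made the potassium value -0.37, which did not pass.

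Of 9 tested ion channel genes, Kcnk5, a potassium channel of the background type, passed. It averaged 287 ± 44.5 in control, 275 ± 34.3 after Ang II and 484 ± 81.1 after potassium (SD, n = 3 each). It rose after potassium by 0.72 ± 0.17 and was lower with Ang II than with potassium, at -0.77 ± 0.17 (log2, SE; limma adjusted p = 0.0197 and 0.0136). The rise lost its call in 7 of 22 alternatives, all but 1 of which left out preparation 1 or 3 or their control or potassium tube, and the value was 0.51 without preparation 3. The difference between the stimuli lost its call in 5 of 22, among them those without preparation 1 or 3, the Ang II tube of preparation 2 or the potassium tube of preparation 3.

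Of 10 other receptor genes of glomerulosa cells, Mrap and Lpar1 passed. Mrap, an accessory protein of the corticotropin receptor, averaged 4039 ± 919.7 in control, 5053 ± 613 after Ang II and 5426 ± 987.5 after potassium (SD, n = 3 each). It rose by 0.34 ± 0.08 after Ang II and by 0.44 ± 0.08 after potassium (log2, SE; limma adjusted p = 0.0441 and 0.0051), and the first call was lost in 13 of 22 alternatives, among them those without preparation 1 or 2, any Ang II tube, the control tube of preparation 1 or 2, or the potassium tube of preparation 1 or 3. Without preparation 2 that value was 0.22, and the potassium call was lost without preparation 1. Lpar1, a lysophosphatidic acid receptor, averaged 1843 ± 38.5 in control, 2300.3 ± 281.9 after Ang II and 2359 ± 93.8 after potassium (SD, n = 3 each). After Ang II its value was 0.31 ± 0.08 and did not pass (log2, SE, limma adjusted p = 0.0626). Ang II minus potassium was -0.04 ± 0.08 (limma adjusted p = 0.871). Lpar1 rose after potassium by 0.35 ± 0.08 (log2, SE; limma adjusted p = 0.0173), while its second probe set gave 0.05 without passing. That call was lost in 9 of 22 alternatives, among them each without 1 preparation and those without the control tube of preparation 1 or 2 or the potassium tube of preparation 1 or 3.

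**Figure D4:**
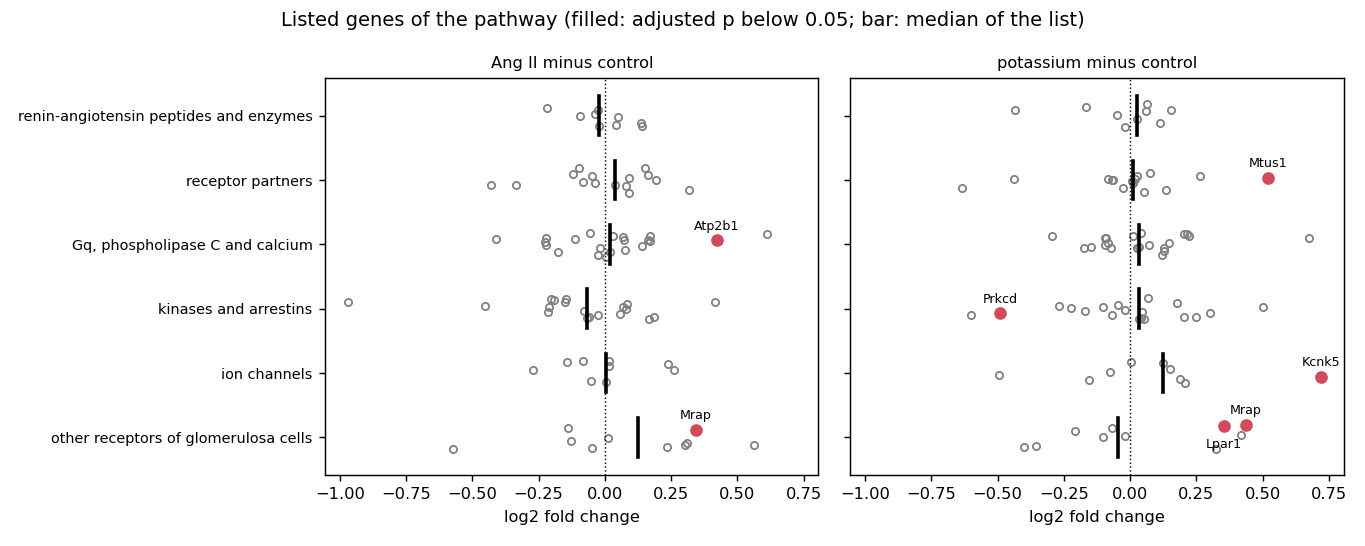
Log2 fold change of the 83 tested pathway genes in their 6 lists, for Ang II (left) and potassium (right) against control; each point is 1 gene, a bar marks the median of a list, and filled named points passed the threshold. The 2 filled points on the left and 5 on the right are scattered over the lists, and the medians lie between -0.07 and 0.12.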

How the data were processed

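GCOS, software of the array's manufacturer, is listed in the submitters' processing notes. How background was handled and probe sets were summarised is not given in the sources used here. The authors deposited a linear intensity for each probe set, and the deposited intensities share 1 trimmed mean (2% off each end). Of 31099 probe sets, 57 controls were left out. The platform annotation gives 1 symbol for 20826 of the rest, several for 436 and none for 9780. Symbols were updated through Entrez identifiers to RefSeq names of assembly GRCr8. The 4 genes and the gene lists were chosen with earlier results of these data known.

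From the deposited intensity, log2(signal + 16) was computed here and fitted with limma 3.58.1 in R 4.3.3 (lmFit, eBayes with trend), with 3 groups and the preparation as a fixed block, without further scaling. Detection calls were not used. The pairing of tubes comes from the design text. Between groups, tubes of 1 preparation correlated at 0.11 to 0.27 in their deviations from group means, and tubes of different preparations at -0.21 to 0.04. Because group means were removed, low values between preparations follow from positive values within them and are no separate check. Pathway genes were represented by the tested probe set with the highest mean signal and named if past the threshold. The fit was also run on simulated data, and no result given here rests on that run. Alternatives were pseudocounts of 1 and 64, no filter or the 60th percentile, a filter on mean log2 signal (chosen after seeing the data), quantile or median scaling, no block, no trend, only the groups compared, and each preparation or tube left out.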

Additional observations from a re-analysis of the deposited data

How the results depend on the processing

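The 7 probe sets gave 21 results over 3 comparisons, none past the threshold, and were recomputed under 456 alternatives in all. Direction and side of the threshold were kept in 432, 18 turned the sign and 6 brought a potassium difference past the threshold. The cause was not tested.

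With arrays scaled to a common median, Agtr2 1369711_at after potassium was 0.94 and passed, Agtr1b after Ang II was 0.07, and 553 probe sets were called between the stimuli against 893. Quantile normalization gave -0.01 for Agtr1a 1384240_at after Ang II and an r of -0.113 for Itm2b with Agtrap 1382272_at.

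Leaving out 1 preparation or tube gave, for potassium against control, 0.29 to 0.60 for Agtr1a 1369291_at, 0.42 to 1.18 for Agtr2 1369711_at, 0.15 to 0.58 for Agtr2 1398288_at, -0.14 to 0.37 for Agtrap 1382272_at, 0.09 to 0.33 for Agtr1a 1384240_at, 0.09 to 0.22 for Agtr1b and -0.39 to -0.13 for Agtrap 1375566_at. For Ang II against control it gave -0.11 to 0.26 for Agtr1a 1369291_at, -0.06 to 0.10 for 1384240_at, -0.14 to 0.01 for Agtr1b, 0.20 to 0.62 for Agtr2 1369711_at, 0.01 to 0.30 for Agtr2 1398288_at, -0.58 to -0.40 for Agtrap 1375566_at and -0.07 to 0.31 for Agtrap 1382272_at. Between the stimuli it gave -0.59 to -0.13 and -0.29 to -0.07 for the Agtr1a probe sets, -0.31 to -0.13 for Agtr1b, -0.80 to -0.02 and -0.39 to -0.03 for those of Agtr2, -0.33 to -0.13 for Agtrap 1375566_at and -0.16 to 0.22 for 1382272_at. The log2 ratio of Agtr1a 1384240_at to Agtr1b ranged from -0.01 to 0.22 after Ang II and from -0.02 to 0.16 after potassium.

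Without the preparation block, 193 probe sets were called after Ang II, 499 after potassium and 442 between the stimuli, against 404, 1004 and 893 with it, and 0 and 3 pathway genes after Ang II and potassium against 2 and 5. The block changed no call of the 4 genes. Without the intensity trend the counts were 32, 256 and 155, with 0 pathway genes in each comparison. Leave-outs gave 141 to 442, 439 to 964 and 262 to 1006 called probe sets, and 0 to 2, 2 to 6 and 1 to 3 pathway genes. Without a filter, or with only the groups compared, 1 pathway gene was called after Ang II. The 60th percentile filter left out Agtr2 1369711_at and Agtrap 1382272_at. The number of arrays and the low signal of Agtr2 1369711_at limit the precision, and the sources give no probe-level background.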
